A study of Mus musculus with 28 samples.

Results

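Macrophages take up arginine and divide it between enzymes that compete for it. Inducible nitric oxide synthase, the product of Nos2, makes nitric oxide and citrulline from arginine and is a classical product of macrophages that meet bacteria, whereas the arginases Arg1 (cytosolic) and Arg2 (mitochondrial) make ornithine and urea. The supply side has Slc7a2, a transporter of cationic amino acids, Ass1 and Asl, which turn citrulline back into arginine, and Gch1, the entry enzyme for tetrahydrobiopterin, a cofactor of nitric oxide synthase; Odc1 starts polyamine synthesis from ornithine.

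These 8 genes, Nos2, Arg1, Arg2, Ass1, Asl, Slc7a2, Gch1 and Odc1, were chosen by name from 30143 genes that had a count and an exon length, and all 8 were found. Their RNA was measured in 28 cultures of murine bone marrow-derived macrophages (BMDMs), grown from marrow of adult C57BL/6J mice with M-CSF and moved to fresh medium with calcium for the treatment. Control cultures received PBS, VWF cultures 10 µg/ml of plasma-derived (pd) VWF, and LPS cultures 100 ng/ml of lipopolysaccharide, each for 3.5 h or 16 h. There were 5 control, 5 VWF and 4 LPS cultures at each time, labelled as biological replicates, and which animal each came from is not given in the sources used here. No group held VWF and LPS together, so the comparison of the agonists is between cultures and each at a single dose. In bulk RNA, fewer cells that express a gene and less RNA of it in each cell cannot be told apart.

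Library totals lay between 41131209 and 77699206 reads. All 9 macrophage markers examined, among them Adgre1 and Csf1r, had a mean of at least 1 TPM in all 6 groups. Markers of T and NK cells summed to at most 0.801 TPM and those of erythroid cells to at most 0.696 TPM in any culture. The neutrophil list summed to between 19.9 and 129 TPM, the fibroblast list to between 4.34 and 154 TPM, and the mast cell list to at most 4.78 TPM, with groups that overlapped within each time. S100a8 and S100a9 made up most of the neutrophil sum. Camp of the same list, a granule peptide, had means of 0.375, 4.65 and 1.84 TPM in control, VWF and LPS at 3.5 h. At 16 h they were 0.572, 7.84 and 2.36 TPM, while Arg1 and Ass1 were high with both VWF and LPS. Camp reached 10 TPM at 16 h only with VWF, so it had to differ from control and no test is given. From control to VWF at 16 h, S100a8 went from 58.6 to 58.4 TPM and Elane from 0.396 to 0.399 TPM. S100a9 went from 8.11 to 17.8 TPM, Ngp from 2.01 to 3.12 TPM, Ltf from 0.564 to 0.802 TPM and Mpo from 0.14 to 0.24 TPM. Ly6g was at 0 in all 16 h cultures and had a highest value of 0.118 TPM. The part of these markers in the results was not tested. The B cell list rested on Cd79b (mean 2.42 TPM with LPS at 16 h and 16.5 TPM in control at 16 h). The endothelial list rose in the LPS cultures at 16 h, from 0.545 to 1.33 TPM in control to 11.3 to 21.8 TPM, through Kdr. The dendritic cell list was between 6.73 and 12.1 TPM in the VWF cultures at 3.5 h and both sets of LPS cultures, against at most 1.67 TPM elsewhere, through Xcr1, and so was high in the groups with high Nos2; its part in the results was not tested. Control 16 h replicate 5 stood apart, with macrophage markers at 7860 TPM against 31066 to 36992 TPM in the other controls of that time. Lyz2 gave most of these sums, which without Lyz2 were 2448 TPM against 6125 to 6690 TPM. The results that use this culture were recomputed without it.

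Reference promoters from RefSeq (GRCm38.p6), running from 250 bases before to 50 after the start site, were at hand for 3 of the 8 genes. These were Ass1, Gch1 and Odc1, and they are shown for that reason. Capitals mark matches to motifs searched on both strands, which were the NF-kappaB motif, the interferon-stimulated response element and the C/EBP motif, each with free bases in its middle, the E-box, which reads CACGTG on either strand, and the TATA box, whose letters are TATAAA. No matches to different motifs overlapped. The Ass1 promoter (chr2:31470020-31470319, plus strand) held an NF-kappaB match at −152 and an E-box at −36 from the start site, the Gch1 promoter (chr14:47189364-47189663, minus strand) a TATA letter match on its opposite strand at −188, and the Odc1 promoter (chr12:17544623-17544922, plus strand) no match.
Ass1: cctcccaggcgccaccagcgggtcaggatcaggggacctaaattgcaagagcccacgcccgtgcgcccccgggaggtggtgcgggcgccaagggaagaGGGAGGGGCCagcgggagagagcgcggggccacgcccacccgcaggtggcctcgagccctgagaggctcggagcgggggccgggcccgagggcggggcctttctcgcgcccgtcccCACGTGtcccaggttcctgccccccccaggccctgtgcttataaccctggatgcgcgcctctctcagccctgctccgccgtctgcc
Gch1: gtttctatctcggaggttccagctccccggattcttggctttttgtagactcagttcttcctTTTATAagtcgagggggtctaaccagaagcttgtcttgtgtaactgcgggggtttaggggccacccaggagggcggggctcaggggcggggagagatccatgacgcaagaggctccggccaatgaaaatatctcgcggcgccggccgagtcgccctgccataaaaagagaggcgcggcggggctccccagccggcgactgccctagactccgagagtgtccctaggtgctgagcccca
Odc1: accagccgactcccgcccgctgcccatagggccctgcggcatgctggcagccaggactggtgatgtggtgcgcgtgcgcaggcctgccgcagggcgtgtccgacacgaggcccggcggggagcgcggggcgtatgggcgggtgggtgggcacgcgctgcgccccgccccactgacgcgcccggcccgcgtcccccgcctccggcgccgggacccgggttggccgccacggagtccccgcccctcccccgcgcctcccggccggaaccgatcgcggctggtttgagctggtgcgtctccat
Such letters are common. Of 32851 promoters of the same length, 20.7% held the NF-kappaB letters, 7.15% the E-box, 13.6% the TATA letters, 9.56% the C/EBP letters and 3.44% those of the response element.

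Nos2 (ENSMUSG00000020826, chromosome 11, positions 78920787 to 78960254, plus strand) was close to absent in untreated macrophages. Values within a gene are CPM, which are read counts scaled to a common library size with TMM factors. At 3.5 h the 5 control cultures held 5, 0, 0, 4 and 0 reads of Nos2 (mean 0.0281 ± 0.0404 CPM, SD). The 5 VWF cultures had 53.6, 46.8, 33.5, 53.4 and 59.4 CPM, and the 4 LPS cultures 107, 170, 132 and 148 CPM. All VWF cultures lay above all controls and below all LPS cultures. At 16 h the order of the agonists was kept but their distance was of another size. The VWF cultures had fallen to 0.0942, 0.319, 0.491, 0.320 and 0.128 CPM (6 to 31 reads), while the LPS cultures stood at 2871, 2266, 2369 and 1008 CPM. Of the 16 h controls, replicate 4 held 4 reads and the other 4 held none.

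Nos2 was higher with VWF than in control at 3.5 h by a log2 fold change of 10.59 (SE 0.42, adjusted p = 6.60e-09), and with LPS by 12.07 (SE 0.38, adjusted p = 6.45e-10), in edgeR's quasi-likelihood test with Benjamini-Hochberg adjustment over all genes tested. A gene counts as called here at an adjusted p under 0.05 with an absolute log2 fold change over 1. Because the controls hold so few reads, these sizes rest on them. Over pooled reads, Nos2 was 1662-fold higher with VWF at 3.5 h (95% exact interval 875 to 3635) and 4621-fold higher with LPS (2434 to 10108), intervals that cover counting error only, and without Control 3.5 h replicate 1 the log2 fold changes were 11.38 and 12.85. VWF was below LPS at 3.5 h (log2 fold change −1.47, SE 0.17, adjusted p = 6.03e-05). With LPS at 16 h the log2 fold change against control was 17.20 (SE 0.77, adjusted p = 1.42e-07), or 19.87 without Control 16 h replicate 4, the only control culture of that time with reads.

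Between 3.5 h and 16 h, Nos2 moved in opposite directions under the agonists. With VWF it fell by 7.47 on the log2 scale (SE 0.34, adjusted p = 1.12e-08) and with LPS it rose by 3.96 (SE 0.33, adjusted p = 1.11e-05). The change of the VWF to LPS difference over time was −11.45 (SE 0.52, adjusted p = 5.82e-11). At 16 h the difference itself was −12.90 (SE 0.57, adjusted p = 8.62e-08), with every VWF culture below every LPS culture. Nos2 at 16 h with VWF was under the filter of 10 TPM in at least 1 culture that a comparison with control required. Its pooled reads, 89 against 4, gave a ratio of 23.0 (95% exact interval 8.66 to 86.1), and without a filter edgeR's log2 fold change was 4.30 (SE 1.04, adjusted p = 0.0140).

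**Figure D1:**
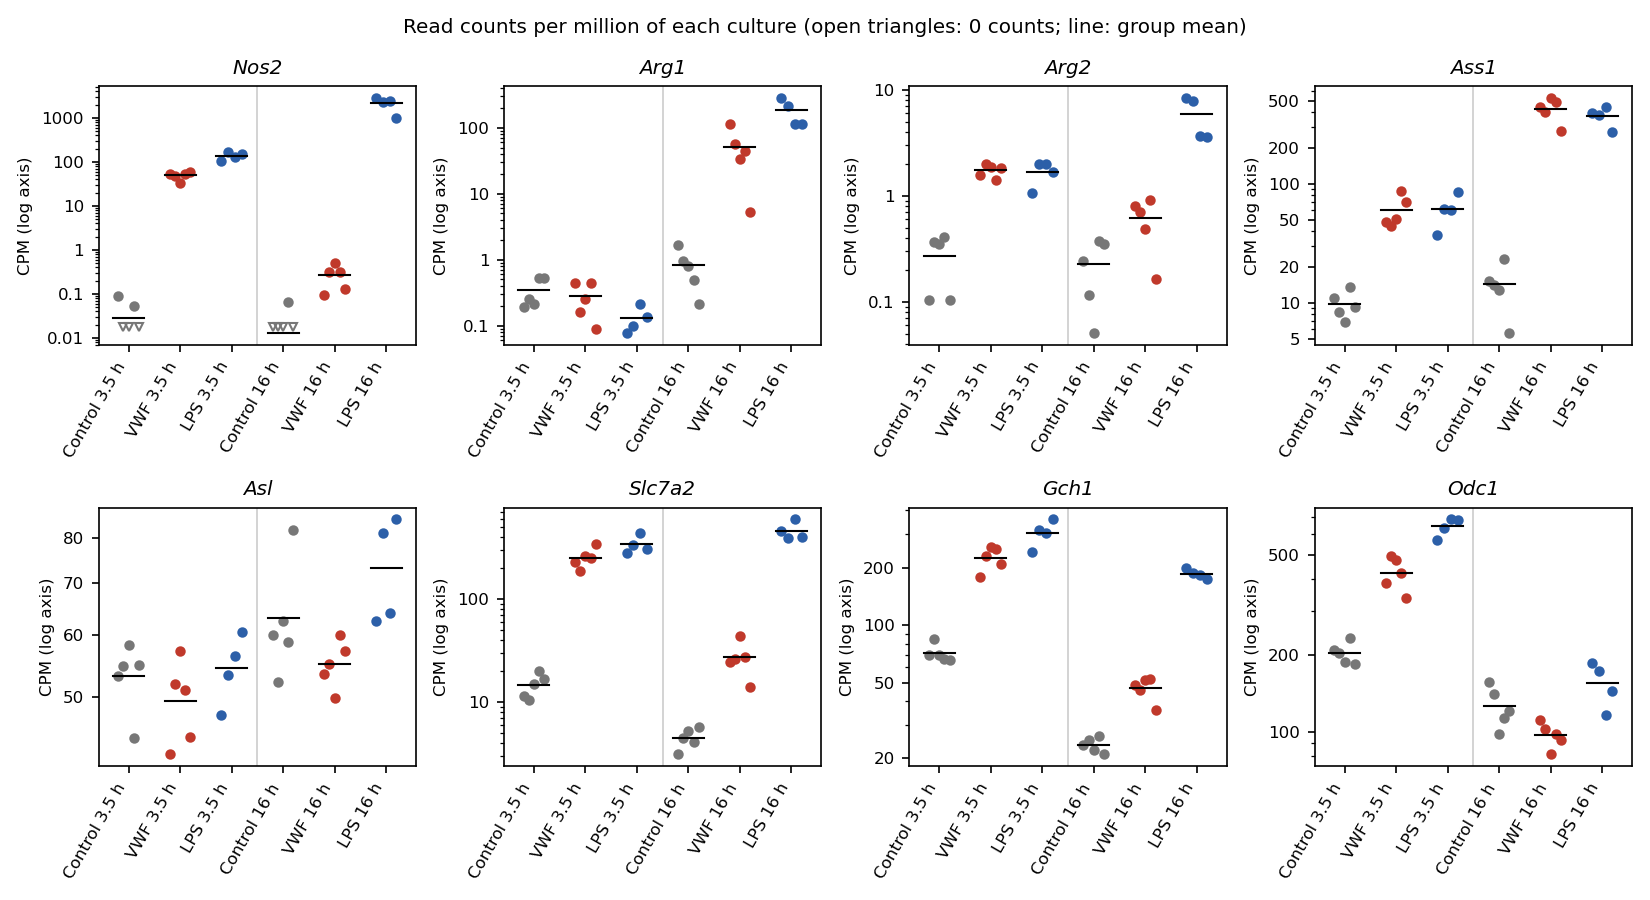
CPM of each culture on a log axis for the 8 genes, with grey, red and blue points for control, VWF and LPS, black lines for group means and open triangles for cultures with 0 reads. Nos2 lies near 49.4 CPM with VWF at 3.5 h and near 0.271 CPM at 16 h, while Arg1 goes from 0.279 to 50.3 CPM.

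Arg1 (ENSMUSG00000019987, chromosome 10, positions 24915221 to 24927484, minus strand) had the opposite time course under VWF. At 3.5 h its means were 0.342 ± 0.169 CPM in control, 0.279 ± 0.163 CPM with VWF and 0.130 ± 0.0582 CPM with LPS (SD, n = 5, 5 and 4), levels under the filter, and the groups overlapped. With edgeR's filterByExpr, which admits genes of lower level, Arg1 was called lower with LPS than in control at 3.5 h. Without any filter it was not called there. At 16 h the control cultures had 1.69, 0.946, 0.798, 0.486 and 0.213 CPM. The VWF cultures had 112, 56.5, 33.2, 44.0 and 5.32 CPM, all above every control. The LPS cultures had 284, 215, 115 and 115 CPM, all above every VWF culture, although the lowest LPS value lay close to the highest VWF value. VWF replicate 5 had the lowest value of its group.

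The log2 fold change of Arg1 at 16 h was 5.88 with VWF (SE 0.82, adjusted p = 0.000346) and 7.78 with LPS (SE 0.61, adjusted p = 4.37e-06). Both agonists raised it from 3.5 h to 16 h, by 7.55 with VWF (SE 0.83, adjusted p = 9.91e-06) and by 10.45 with LPS (SE 0.50, adjusted p = 7.75e-07). VWF was lower than LPS at 16 h (log2 fold change −1.85, SE 0.66, adjusted p = 0.0347). That call was lost without LPS replicate 1 or 2 or VWF replicate 2, 3 or 4, each left out alone (largest adjusted p 0.0932), under library size scaling (−1.40, adjusted p = 0.0816) and without a filter (adjusted p = 0.0757). With the replicate number as a block, taken to pair the cultures of this comparison, it was −1.601 (SE 0.11, adjusted p = 4.89e-06). LPS has no replicate 5, so VWF replicate 5, the lowest VWF culture, does not enter the difference in that fit. The change of this difference over time, −2.93 (SE 1.25), had an adjusted p of 0.0576. It was called with DESeq2 (−2.98, adjusted p = 0.00488) and with all groups in 1 fit (−2.89, adjusted p = 0.0358). The block also called it (−3.10, adjusted p = 0.000440), but the replicate numbers were not shown to pair the 3.5 h cultures that this change includes.

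Cultures of the same replicate number at 16 h deviated together between VWF and LPS, in all 4 pairs (correlations 0.201 to 0.812). Of these, 3 correlated best with their own number. The labels do not state that the numbers pair the cultures. Read by number, Arg1 with VWF was 39.6%, 26.2%, 29.0% and 38.4% of its LPS value. Against the control of the same number, which was not shown to be paired, VWF was 66.5, 59.7, 41.7, 90.6 and 25.0 times higher. Replicate 1 was the highest culture for Arg1 in all 3 groups, and replicate 2 the next.

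**Figure D2:**
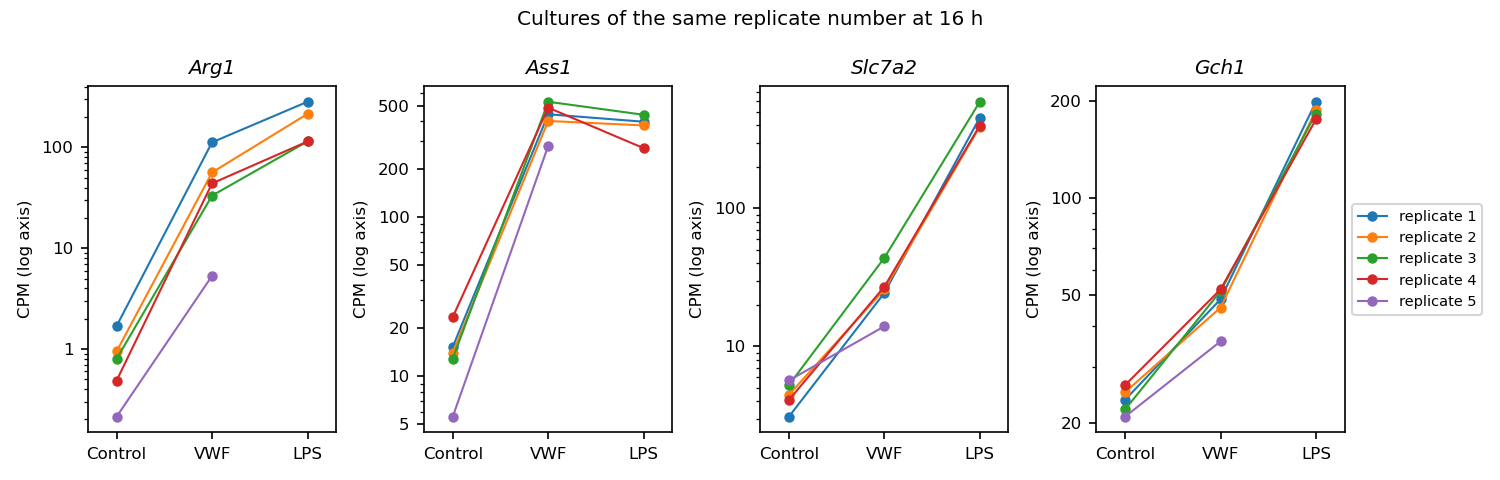
CPM at 16 h on a log axis for Arg1, Ass1, Slc7a2 and Gch1, with a line for each replicate number (LPS has 4). Lines join cultures that share a number. The numbers met the rule for pairing between VWF and LPS cultures. They did not meet it with the control cultures, which does not show that those are unpaired. VWF lies below LPS in each pair for Arg1, Slc7a2 and Gch1 and above it in each for Ass1.

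Arg2 (ENSMUSG00000021125, chromosome 12, positions 79130777 to 79156301, plus strand) stayed low. Its mean at 3.5 h was 0.268 ± 0.151 CPM in control, 1.74 ± 0.236 CPM with VWF and 1.68 ± 0.439 CPM with LPS, with each agonist's cultures above all controls. No culture reached 10 TPM at 3.5 h, so these comparisons were outside the main test; without a filter the log2 fold changes were 2.73 (SE 0.35, adjusted p = 5.98e-06) with VWF and 2.66 (SE 0.40, adjusted p = 6.15e-06) with LPS. At 16 h the VWF cultures (0.801, 0.698, 0.491, 0.907 and 0.164 CPM) overlapped the controls, while the LPS cultures (8.43, 7.87, 3.68 and 3.61 CPM) lay above all of them. LPS raised Arg2 by 4.73 on the log2 scale (SE 0.57, adjusted p = 7.85e-05), and VWF was below LPS (−3.25, SE 0.47, adjusted p = 0.000195). The exons of Arg2 overlap Vti1b and Gm48780 on the opposite strand, over 20% and 8.12% of their length, and the strand setting of the counting is not given. Vti1b stood at a mean of 98.6 CPM in control and 126 CPM with LPS at 16 h, while Arg2 in the same cultures stood at 0.226 and 5.90 CPM. At 3.5 h Vti1b was at 86.0 CPM in control, 93.5 CPM with VWF and 96.7 CPM with LPS.

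The balance of Nos2 and the arginase genes was given as the share of Nos2 in the summed TPM (reads corrected for exon length and library size, the scale used to compare genes) of Nos2, Arg1 and Arg2. With VWF at 3.5 h Nos2 made up 90.3%, 87.8%, 84.3%, 91.0% and 91.0% of these transcripts, and with LPS 96.9%, 96.4%, 95.3% and 96.4%. At 16 h the VWF cultures had 0.0419%, 0.279%, 0.724%, 0.355% and 1.15%, with Arg1 at 94.3% to 98.9%. The LPS cultures at 16 h had 83.0%, 83.4%, 90.9% and 80.9%, and Arg1 made up 14.7 ± 4.15% there. In controls the 3 genes summed to only 0.571 to 2.85 TPM, and their shares (Nos2 mean 2.65% at 3.5 h and 0.595% at 16 h) rest on a few reads.

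The share of Nos2 under VWF fell from a mean of 88.9% to 0.509% between the times (difference −88.4 percentage points, exact two-sided permutation p = 0.00794, adjusted p = 0.0238 over 9 pairs of groups), the smallest p that 5 against 5 cultures can give. VWF cultures had a lower share than LPS cultures, by a difference of −7.36 points at 3.5 h and −84.0 points at 16 h (each exact permutation p = 0.0159, adjusted p = 0.0238), the smallest that 5 against 4 can give. The LPS share was lower at 16 h than at 3.5 h (−11.7 points, exact permutation p = 0.0286, adjusted p = 0.0367). VWF and control at 16 h differed by −0.0858 points (exact permutation p = 1). Without Control 16 h replicate 4, the only control of that time with Nos2 reads, the difference was 0.509 points (exact permutation p = 0.0159, adjusted p = 0.0238). Leaving out this culture fixed that p, since the remaining controls all had a share of 0 and every VWF culture had reads. It therefore decides nothing. The shares stand on unlike totals, since the transcripts summed to 63.8 TPM with VWF and 1.601 TPM in control.

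**Figure D3:**
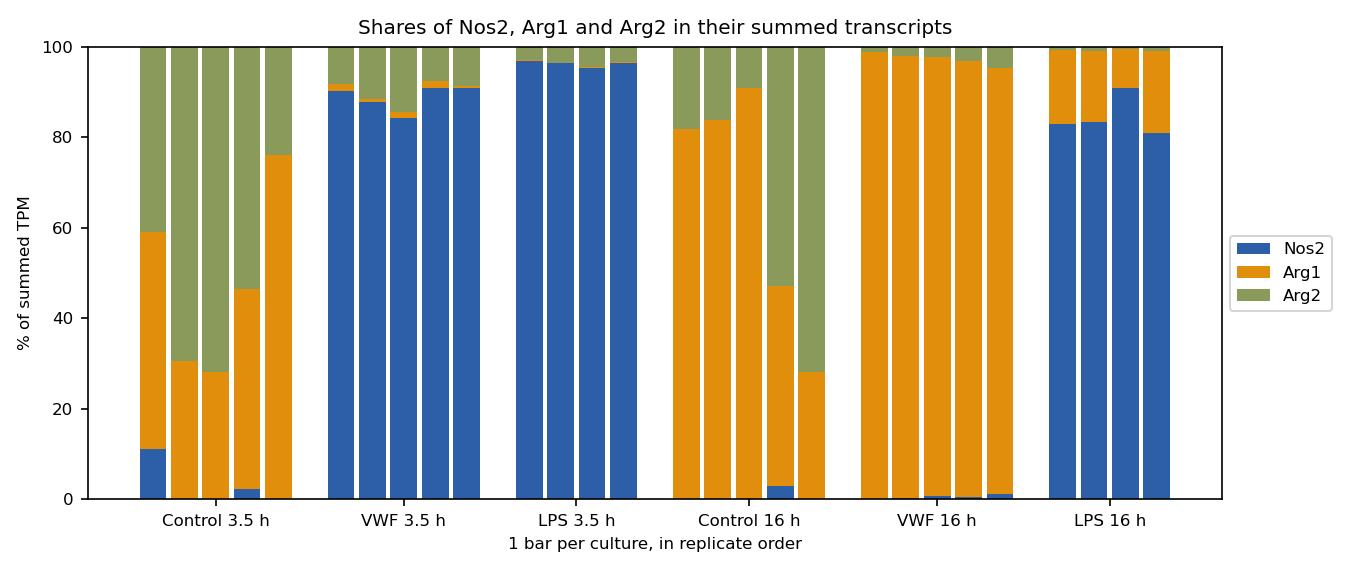
Stacked bars from 0 to 100% give the share of Nos2 (blue), Arg1 (orange) and Arg2 (green) in their summed TPM, with 1 bar per culture in replicate order. Nos2 fills 84.3% to 91.0% of each VWF bar at 3.5 h and at most 1.15% at 16 h, while it fills at least 80.9% of each LPS bar at both times.

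Ass1, the argininosuccinate synthase gene (ENSMUSG00000076441, chromosome 2, positions 31470207 to 31520672, plus strand), rose with both agonists. At 3.5 h control cultures had 11.02, 8.43, 6.94, 13.6 and 9.15 CPM, VWF cultures 47.7, 43.8, 50.5, 87.2 and 69.9 CPM and LPS cultures 37.3, 61.4, 60.4 and 85.8 CPM. At 16 h controls had 15.3, 14.1, 12.9, 23.5 and 5.57 CPM, VWF cultures 441, 400, 528, 485 and 279 CPM and LPS cultures 396, 375, 437 and 270 CPM. The treated cultures lay above all controls at each time and overlapped each other. The log2 fold change with VWF was 2.62 at 3.5 h (SE 0.23, adjusted p = 3.04e-06) and 4.88 at 16 h (SE 0.38, adjusted p = 6.10e-06), and the change of the effect over time was 2.31 (SE 0.41, adjusted p = 0.000171). With LPS it was 2.65 (SE 0.24, adjusted p = 2.80e-06) and 4.72 (SE 0.38, adjusted p = 5.23e-06). The VWF to LPS difference was −0.00 at 3.5 h (SE 0.25, adjusted p = 0.989) and 0.22 at 16 h (SE 0.20, adjusted p = 0.371). By replicate number VWF was above LPS in all 4 pairs at 16 h, at 111%, 107%, 121% and 180% of the LPS value. With the replicate block the difference was 0.35 (SE 0.13, adjusted p = 0.0352). VWF replicate 5, the lowest VWF culture at 279 CPM, has no LPS partner and does not enter the difference in that fit. Under library size scaling the difference was 0.66 (SE 0.22, adjusted p = 0.0210). None of these passed the fold threshold.

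Asl, the next enzyme of the citrulline to arginine route (ENSMUSG00000025533, chromosome 5, positions 130011258 to 130029247, minus strand), was the member that no treatment changed by the call rule. Its group means lay between 49.4 CPM (VWF, 3.5 h) and 73.1 CPM (LPS, 16 h), and VWF against control gave −0.10 at 3.5 h (SE 0.10, adjusted p = 0.495) and −0.20 at 16 h (SE 0.11, adjusted p = 0.203). The LPS values, 0.04 and 0.24, turned to −0.50 and −0.32 under library size scaling. The ratio of Ass1 to Asl in TPM therefore went from 0.381 ± 0.143 in control to 2.46 ± 0.794 with VWF and 2.22 ± 0.520 with LPS at 3.5 h, and from 0.480 ± 0.240 to 15.6 ± 4.11 and 10.5 ± 3.32 at 16 h. A share of 26.9% of the 100-base windows of Ass1 also occurs in the pseudogene Gm5424, whose mean was 2.18 CPM with VWF at 16 h and 0.0702 CPM in control.

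Slc7a2, the arginine transporter gene (ENSMUSG00000031596, chromosome 8, positions 40862396 to 40922308, plus strand), rose early with both agonists and then fell with VWF (−3.21 from 3.5 h to 16 h, SE 0.28, adjusted p = 1.58e-06), whereas the value with LPS was 0.47 (adjusted p = 0.0508). It was also lower at 16 h in untreated cultures, all of them below all those of 3.5 h. That comparison was under the filter, and without a filter its log2 fold change was −1.76 (SE 0.21, adjusted p = 3.33e-05). At 3.5 h controls had 11.4, 10.4, 15.1, 19.8 and 16.8 CPM, VWF cultures 228, 187, 260, 250 and 338 CPM and LPS cultures 279, 335, 440 and 306 CPM. At 16 h controls had 3.10, 4.46, 5.25, 4.09 and 5.67 CPM, VWF cultures 24.4, 25.9, 43.9, 27.1 and 14.0 CPM and LPS cultures 455, 391.5, 593 and 399 CPM. VWF and LPS cultures overlapped at 3.5 h and were far apart at 16 h. The log2 fold change with VWF was 4.12 at 3.5 h (SE 0.22, adjusted p = 4.92e-08) and 2.58 at 16 h (SE 0.29, adjusted p = 7.65e-05). With LPS it was 4.54 (SE 0.21, adjusted p = 1.00e-08) and 6.70 (SE 0.24, adjusted p = 4.65e-08). VWF was lower than LPS at 16 h (−4.08, SE 0.30, adjusted p = 2.26e-06), and at 3.5 h the difference was −0.40 (SE 0.17, adjusted p = 0.0767). VWF 16 h replicate 3 was the only culture of the VWF against control comparison at 16 h with at least 10 TPM, so that without it Slc7a2 was not tested.

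Gch1, the first enzyme of tetrahydrobiopterin synthesis (ENSMUSG00000037580, chromosome 14, positions 47153895 to 47189413, minus strand), was expressed in every group. Its control cultures at 3.5 h had 69.4, 84.5, 69.5, 66.6 and 65.9 CPM, those with VWF 178, 230, 257, 251 and 210 CPM and those with LPS 242, 315, 306 and 359 CPM. At 16 h controls had 23.7, 25.0, 22.1, 26.3 and 21.0 CPM, VWF cultures 48.6, 45.7, 51.4, 52.1 and 35.9 CPM and LPS cultures 199, 188, 183 and 176 CPM. All treated cultures lay above the controls of their time. The log2 fold change with VWF was 1.67 at 3.5 h (SE 0.11, adjusted p = 2.23e-07) and 0.97 at 16 h (SE 0.12, adjusted p = 0.000117), just under the fold threshold. It passed that threshold without VWF 16 h replicate 5 (1.05) and without Control 16 h replicates 2 (1.00) or 4 (1.02). With LPS it was 2.11 (SE 0.12, adjusted p = 6.99e-08) and 3.01 (SE 0.10, adjusted p = 2.41e-08), and VWF was lower than LPS at 16 h (−1.99, SE 0.11, adjusted p = 3.34e-07). Gch1 also fell with time in untreated cultures, by 1.59 (SE 0.10, adjusted p = 2.19e-06).

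Odc1, the ornithine decarboxylase gene (ENSMUSG00000011179, chromosome 12, positions 17544794 to 17551505, plus strand), responded early only by the call rule. Its means at 3.5 h were 204 ± 19.4 CPM in control, 423 ± 63.8 CPM with VWF and 645 ± 56.3 CPM with LPS, with no overlap. At 16 h they were 126 ± 23.1, 97.0 ± 11.1 and 156 ± 31.6 CPM, with overlap of both agonists' cultures and the controls. The log2 fold change at 3.5 h was 1.06 with VWF (SE 0.11, adjusted p = 9.80e-06), or 0.84 under library size scaling, which ends that call, and 1.67 with LPS (SE 0.10, adjusted p = 5.81e-08). At 16 h it was −0.39 with VWF (SE 0.14, adjusted p = 0.0546) and 0.33 with LPS (SE 0.18, adjusted p = 0.147). From 3.5 h to 16 h Odc1 fell by 2.12 with VWF (SE 0.12, adjusted p = 5.72e-08) and by 2.02 with LPS (SE 0.16, adjusted p = 7.18e-06), and in control the value was −0.69 (SE 0.13, adjusted p = 0.00234). About 10.1% of its 100-base windows occur in other genes, mainly processed copies.

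**Figure D4:**
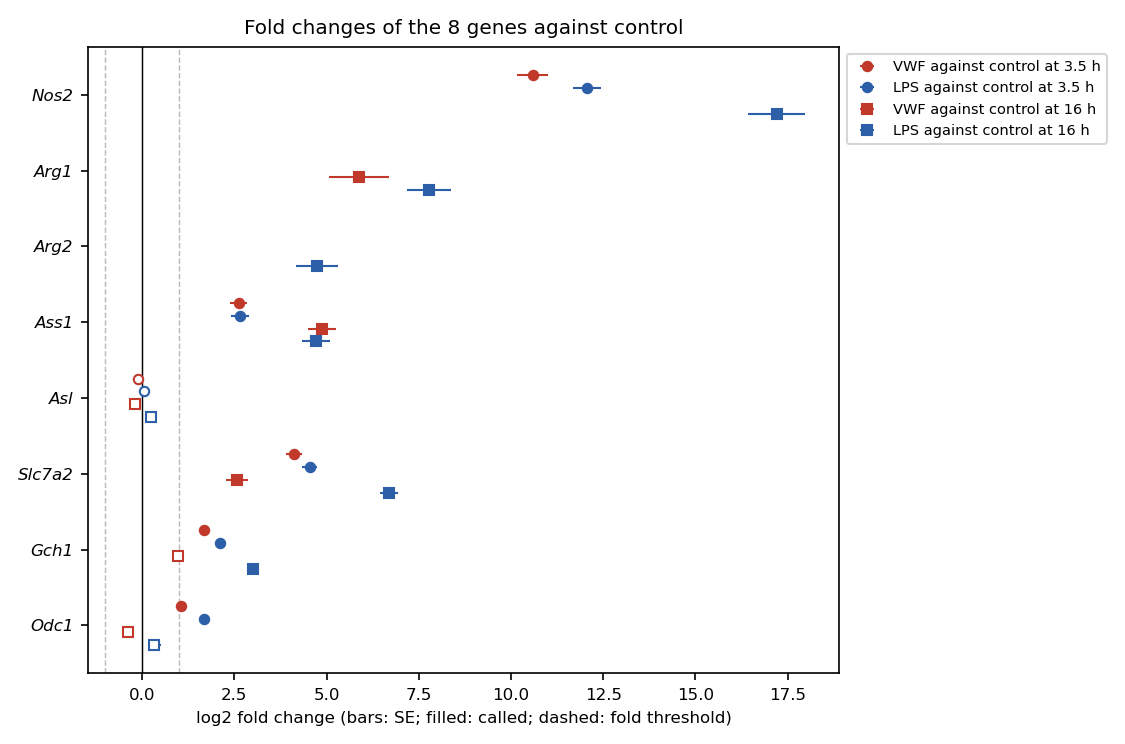
Log2 fold changes against control with SE bars for the 8 genes, red for VWF and blue for LPS, circles for 3.5 h and squares for 16 h, filled where called. Genes under the filter have no point. At 3.5 h the VWF and LPS points of Ass1 lie at 2.62 and 2.65, and at 16 h the LPS points of Nos2, Slc7a2 and Gch1 reach 17.20, 6.70 and 3.01 while VWF gives 2.58 and 0.97 for the last 2.

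Counted together, 6 of the 8 genes passed the filter with VWF at 3.5 h and 5 of them were called higher and none lower, where 9.1% of 8200 genes were called higher and 5.59% lower. At 16 h with VWF, 3 of 6 were called higher and none lower (background 4.55% higher, 4.15% lower and 8.71% either way of 7798 genes). With LPS, 5 of 6 were called higher at 3.5 h (background 12.8% of 8190 genes) and 6 of 8 at 16 h (15.3% of 7994 genes). Between the agonists, 1 of 6 was called lower with VWF at 3.5 h (6.71% of 7500 genes lower, 4.71% higher), which was Nos2, and 5 of 8 at 16 h (14.5% of 7574 genes), which were Nos2, Arg1, Arg2, Slc7a2 and Gch1. A member that passed the filter only through 1 of the groups compared had to differ, so these counts are descriptions. This was so for Nos2 and Slc7a2 among the 5 calls of each agonist at 3.5 h, for Arg1 and Slc7a2 among the 3 of VWF at 16 h, and for Nos2, Arg1, Arg2 and Slc7a2 among the 6 of LPS at 16 h. Between the agonists at 16 h it was so for Nos2 and Arg2, which passed through the LPS cultures only. The agonist comparisons share the control cultures.

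The change of effect from 3.5 h to 16 h was called for 5 of 7 genes with VWF (13.5% of 8660 genes called either way, 5.69% higher and 7.77% lower), for 6 of 8 with LPS (26.3% of 8748 genes) and, for the difference of VWF and LPS, for 4 of 8 (25% of 8217 genes). With VWF the effect grew for Arg1 (6.26, SE 0.98, adjusted p = 4.77e-05) and Ass1 and shrank for Slc7a2 (−1.51, SE 0.35, adjusted p = 0.00227), Odc1 (−1.42, SE 0.18, adjusted p = 3.42e-06) and Nos2 (−6.29, SE 1.99, adjusted p = 0.0194). The Nos2 value rests on Control 16 h replicate 4 and was −3.49 with an adjusted p of 0.914 without it. With LPS the effect on Slc7a2 grew by 2.18 (SE 0.31, adjusted p = 1.65e-05), and that on Odc1 shrank (−1.32, SE 0.20, adjusted p = 4.47e-05). Over time alone, untreated cultures had 1 call among 4 genes tested, which left out Slc7a2, and it was Gch1, which fell (9.08% of 8333 genes called, 5.09% lower). VWF cultures had 6 of 7 (21.4% of 7927 genes), 2 higher and 4 lower, and LPS cultures 5 of 8 (28.1% of 6987 genes), 4 higher, where 14.6% of genes were, and 1 lower. Nos2 and Arg1 with VWF, and Arg1 and Arg2 with LPS, passed the filter through 1 time only and so had to differ. The same members passed through 1 group only in the changes of effect, as did Arg2 in the difference of VWF and LPS. These counts are therefore descriptions too.

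The levels of each gene were put in order over the 6 groups by mean TPM, and 16 of 40 neighbouring pairs differed beyond their spread (exact permutation tests on log2(TPM + 0.1), adjusted over 40). For Nos2 the order was LPS 16 h (1034 TPM), LPS 3.5 h (64.5), VWF 3.5 h (31.8), VWF 16 h (0.172) and the controls; the LPS pair (exact permutation p = 0.0286, the smallest that 4 against 4 can give, adjusted p = 0.0635) and the controls did not pass. Arg1 was highest with LPS at 16 h (172 TPM), then VWF at 16 h (62.5), a pair that did not pass in TPM (log2 difference 1.85, adjusted exact permutation p = 0.0866) and passed in CPM (2.28, adjusted exact permutation p = 0.0423), and then the 4 groups at or under 1.14 TPM. Arg2 stood at 8.65 TPM with LPS 16 h, above VWF 3.5 h (3.42), LPS 3.5 h (2.40), VWF 16 h (1.17) and the controls, and only its first neighbouring pair passed in TPM, while in CPM the pair of LPS 3.5 h and VWF 16 h passed too. For Ass1, Asl, Slc7a2, Gch1 and Odc1 the order of the groups changed between TPM and CPM, so none is given.

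Cultures differed in ways that several genes shared. VWF 16 h replicate 5 was the lowest of its group for 5 of the 8 genes (Arg1, Arg2, Ass1, Slc7a2 and Gch1), and LPS 3.5 h replicate 1 was the lowest for all 8. LPS 16 h replicate 4 was the lowest for Nos2, Arg1, Arg2, Ass1 and Gch1. Macrophage markers summed to 10585 TPM in LPS 3.5 h replicate 1, against 17534 to 18200 TPM in the other LPS cultures of that time, and to 9281 TPM in LPS 16 h replicate 4, against 16241 to 19135 TPM. Much of these sums was Lyz2. Without Lyz2 they were 4084 TPM against 5194 to 5912 TPM at 3.5 h, and 6282 TPM against 9760 to 11116 TPM at 16 h. The part of the markers in these values was not tested. Without Control 16 h replicate 5, which was the lowest control for Arg1, Ass1 and Gch1, all calls of the members against control at 16 h were kept.

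Of 51 further genes of arginine transport, the urea cycle, nitric oxide synthases, tetrahydrobiopterin, polyamines and ornithine-derived products, 30 could be tested in each comparison with control. With VWF at 3.5 h, 1 was called higher and none lower, where 9.1% of all genes were called higher and 5.59% lower (median log2 fold change −0.12, against −0.01 over all genes). At 16 h 1 was called higher and 3 lower, where 4.55% of all genes were higher and 4.15% lower (median −0.01, against −0.03). With LPS there were 1 higher and 1 lower at 3.5 h (12.8% and 11.8% of all genes), and 3 higher and 8 lower at 16 h (15.3% and 12.4% of all genes), with a median of −0.63 against −0.03. VWF against LPS at 16 h gave 11 higher and 2 lower of 29 (median 0.80, against 0.00), where 11.1% of all genes were called higher and 14.5% lower.

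Slc7a7, a light chain of a cationic amino acid exchanger, was the further gene called higher with VWF at both times. Its mean was 19.5 ± 2.78 CPM in control, 69.3 ± 1.44 CPM with VWF and 32.7 ± 5.87 CPM with LPS at 3.5 h (VWF log2 fold change 1.84, SE 0.10, adjusted p = 4.04e-08), and 12.6 ± 2.84, 41.8 ± 5.62 and 36.1 ± 8.24 CPM at 16 h (1.71, SE 0.18, adjusted p = 5.75e-05). It was higher with VWF than with LPS at 3.5 h by 1.12 (SE 0.12, adjusted p = 2.72e-05), the reverse of Nos2, and without LPS 3.5 h replicate 1 the value was 0.995 and not called. Slc3a2, the heavy chain that such exchangers need, rose with LPS at 16 h by 1.90 (SE 0.12, adjusted p = 1.07e-06), to 1218 ± 118 CPM from 331 ± 39.6 CPM. Slc7a6, another light chain, fell by 1.57 with LPS at 3.5 h (SE 0.17, adjusted p = 1.20e-05), from 25.9 ± 4.22 to 8.69 ± 1.95 CPM.

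In the polyamine list LPS at 16 h raised Smox, spermine oxidase, by 2.02 (SE 0.14, adjusted p = 1.82e-06), from 52.1 ± 2.95 to 207 ± 41.5 CPM. It lowered Srm, spermidine synthase, which fell by 1.85 (SE 0.18, adjusted p = 1.77e-05), and Sms, spermine synthase, which fell by 1.13 (SE 0.13, adjusted p = 5.54e-05). Sms also fell with VWF at 16 h, by 1.05 (SE 0.10, adjusted p = 2.33e-05), from 114 ± 17.3 to 55.4 ± 4.12 CPM, whereas VWF against LPS at 16 h put Srm higher by 2.25 (SE 0.13, adjusted p = 3.36e-07). Sat1, which acetylates spermidine and spermine, rose by 1.21 with LPS at 3.5 h (SE 0.16, adjusted p = 5.27e-05), or 0.68 under library size scaling. In the VWF cultures at 16 h Odc1, Srm, Smox and Sat1 were not called.

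Slc25a13, the mitochondrial aspartate and glutamate carrier, fell at 16 h by 1.05 with VWF (SE 0.11, adjusted p = 5.66e-05) and by 2.01 with LPS (SE 0.11, adjusted p = 3.60e-07), from 37.2 ± 2.53 to 18.1 ± 2.86 and 9.09 ± 0.964 CPM. The VWF values of Sms and Slc25a13 both came to −0.99 with filterByExpr and −0.98 without a filter, where neither was called. Nostrin, a protein that binds endothelial nitric oxide synthase and affects its place in the cell, fell at 16 h by 1.17 with VWF (SE 0.11, adjusted p = 2.43e-05) and by 1.92 with LPS (SE 0.11, adjusted p = 5.02e-07). Nos3, the gene of that synthase, had at most 0.437 TPM in any culture. The tetrahydrobiopterin genes Qdpr and Spr fell with LPS at 16 h, by 1.23 (SE 0.21, adjusted p = 0.000835) and 1.11 (SE 0.13, adjusted p = 4.73e-05), while Gch1 of the same route rose. Gamt, which makes creatine, fell with LPS at 16 h by 1.58 (SE 0.19, adjusted p = 9.22e-05), and with VWF at 16 h these 3 genes were not called. The 12 genes named here were those with the largest change of 13 called against control, and Amd1 was the other.

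**Figure D5:**
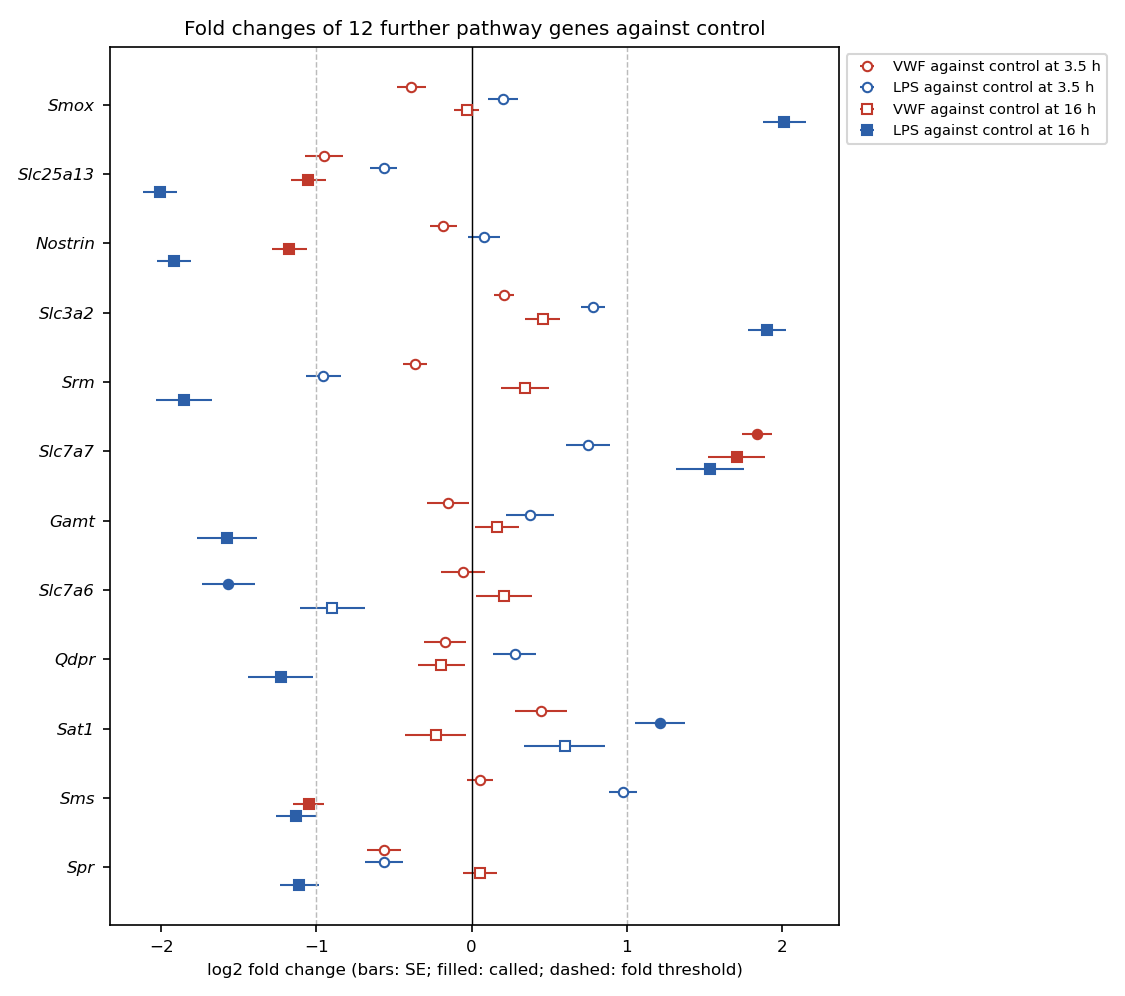
Log2 fold changes against control with SE bars for the 12 further pathway genes, with colours and symbols as for the 8 genes. Slc7a7 is called in 3 of the 4 comparisons, and for Srm, Gamt, Qdpr and Spr only LPS at 16 h passes the call rule.

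The genes whose pattern over the 28 cultures was most like that of each member were found by the root mean square difference of centred log2 CPM among 8859 genes. Nos2 was nearest to Cxcl11 (1.40, against a spread of Nos2 of 6.01), Lipg (1.84) and Ifit1bl1 (1.89), which stood at means of 23.4, 6.72 and 20.4 CPM with VWF at 3.5 h and 0.431, 0.125 and 3.74 CPM at 16 h. Arg1 was nearest to Gm32089 (1.69), Cd38 (1.91) and Cd300lf (2.17), with Cd38 at 1.48 CPM in control, 33.3 CPM with VWF and 186 CPM with LPS at 16 h. Ass1 was nearest to Hp (0.731), Ly6c2 (0.754) and Slpi (0.785), Slc7a2 to Gbp7 (0.657), Cd274 (0.674) and Traf1 (0.700), and Gch1 to Rnf19b (0.359), Rhbdf2 (0.390) and Sbno2 (0.391). Arg2 was nearest to Pdpn (0.711), H2-Q5 (0.713) and H2-Q4 (0.739), Asl to Atp6v0d1 (0.106), Lin37 (0.119) and Sdf4 (0.124), and Odc1 to Spryd7 (0.290), Ppp4r2 (0.298) and Socs7 (0.318).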

How the data were processed

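BMDMs were sequenced by the authors as paired-end reads, with STAR and GRCm38 (mm10) named in the submitters' processing notes. The version, the annotation used for counting and the strand setting: not given in the sources used here. The authors deposited whole-number counts for 54532 genes, with no normalization or filter seen in the values. Symbols and exon lengths came from GENCODE M21.

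The members, lists and tests here were chosen with earlier results of these data known. TPM was computed from counts and exon lengths, and CPM with TMM factors over all 28 cultures. A gene was tested where 1 culture of the comparison reached 10 TPM. The main test was edgeR 4.0.16 (R 4.3.3), quasi-likelihood with robust dispersion and TMM, on the groups compared, with Benjamini-Hochberg adjustment. The submitters' study used DESeq2, which was an alternative here (1.42.0). A call needs an adjusted p under 0.05 and an absolute log2 fold change over 1. Shares and orders used exact permutation tests (scipy 1.17.1), with a pseudocount of 0.1 TPM for orders. The other alternatives were median-of-ratios factors, library size scaling, filterByExpr, no filter, all groups in 1 fit, the replicate block, each culture left out, and, for orders, a pseudocount of 1 or CPM. Scripts were tested on simulated data.

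Pathway genes were named up to 12 with the largest change against control. Like genes were the 3 with the smallest root mean square difference from a member, with a prior count of 2. Totals of 41131209 to 77699206 reads make counting error small except for genes with few reads. TMM factors were 0.944 to 1.19 in control, 0.967 to 1.12 with VWF and 0.729 to 0.845 with LPS. Within groups no 2 cultures were alike within sampling noise (lowest chi-square per degree of freedom 17.1 over 52 pairs). Replicate numbers were taken to pair the cultures where the deviations of every pair correlated above 0.1, which held for VWF against LPS at 16 h (0.201 to 0.812 over 4 pairs).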

Additional observations from a re-analysis of the deposited data

Results flagged for a closer look

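Nos2 in Control 16 h replicate 4 stood apart from its group at 0.0647 CPM, which is 4 reads, against none in the other 4 cultures. Gch1 in Control 3.5 h replicate 2 stood apart at 84.5 CPM, with the next culture at 69.5 CPM. These were 2 of 48 groups examined for a single far value, and chance gives about 1 in 20. That rate does not hold for the Nos2 group, where any read beside 4 cultures with none would be flagged.

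The effect of a treatment differed between 16 h and 3.5 h, by the interaction term of edgeR's quasi-likelihood fit, for the genes that follow. For VWF the log2 difference of the effects was −6.29 for Nos2, 6.26 for Arg1, 2.31 for Ass1, −1.51 for Slc7a2 and −1.42 for Odc1. For LPS it was 5.13 for Nos2, 9.18 for Arg1, 2.13 for Arg2, 2.09 for Ass1, 2.18 for Slc7a2 and −1.32 for Odc1. For the difference of VWF and LPS it was −11.45 for Nos2, −3.35 for Arg2, −3.70 for Slc7a2 and −1.59 for Gch1. The Nos2 values for VWF and LPS rest on control cultures with at most 5 reads. For LPS the value was 4.35 (adjusted p = 0.0562) without Control 3.5 h replicate 1 and 7.73 (adjusted p = 0.00228) without Control 16 h replicate 4. The Arg2 values rest on levels under 10 TPM outside the LPS cultures at 16 h.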

How the results depend on the processing

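Of the fold changes of the 8 genes recomputed under other tools, scalings, filters and fits, 558 kept direction and call, 5 became calls, 3 lost the call and 8 changed sign, all 8 under library size scaling and none called. That scaling moved the median log2 fold change of all genes to −0.22 and −0.09 for VWF and −0.55 and −0.59 for LPS at 3.5 h and 16 h, and to 0.32 and 0.46 for VWF against LPS. The sign changes were Asl with LPS (−0.50 at 3.5 h, −0.32 at 16 h), between VWF and LPS (0.19 and 0.0687) and for the VWF effect over time (0.0643), Odc1 with LPS at 16 h (−0.24) and for the VWF to LPS difference over time (0.0640), and Ass1 between VWF and LPS at 3.5 h (0.30). It also moved the share of calls that were higher from 62% to 48.3% for VWF at 3.5 h, from 52.1% to 24.1% and 55.2% to 25.2% for LPS, from 41.2% to 69.8% and 43.3% to 72.1% between the agonists, and from 42.8% to 56.8% for their difference over time.

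Filters decided the totals of genes called. With filterByExpr and with no filter these were 2099 and 2366 for VWF at 3.5 h (main 1204), 1363 and 1378 for VWF at 16 h (679), 3919 and 4539 for LPS at 3.5 h (2010), 4086 and 4224 for LPS at 16 h (2210), 1776 and 1940 for VWF against LPS at 3.5 h (856), 3896 and 4238 at 16 h (1932), 1570 and 1524 for control over time (757), 3458 and 3974 for VWF over time (1694), 4115 and 4296 for LPS over time (1964), 1972 and 1904 for the VWF effect over time (1166), 3786 and 3611 for the LPS effect (2301), and 3575 and 3527 for their difference (2052). They test more genes of low level. Members called went to 5 without a filter for VWF at 16 h (main 3) and to 2 with either filter for control over time (main 1). For LPS at 3.5 h filterByExpr gave 7 (main 5), with 6 higher and 1, Arg1, lower.

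With 1 culture left out, members called ranged from 2 to 4 for VWF at 16 h. Between VWF and control at 16 h the Nos2 share differed by −0.245 to 0.509 points, the latter without Control 16 h replicate 4. The adjusted exact permutation p of 0.0238 there was fixed by leaving out the only control with Nos2 reads, whatever the Nos2 share with VWF. For LPS against control the difference in Nos2 share ranged from 92.9 to 95.7 points at 3.5 h and from 81.8 to 85.2 at 16 h. For VWF against LPS it ranged from −7.89 to −6.21 and from −85.2 to −81.9, and for LPS over time from −13.8 to −10.5. Without an LPS culture the adjusted exact permutation p of these was 0.0536 or 0.0735, since fewer cultures limit the smallest p. Log2 fold changes that changed sign ranged from −0.19 to 0.20 (Ass1, VWF against LPS at 3.5 h), −0.00701 to 0.37 (Ass1, their difference over time), −0.0146 to 0.10 (Asl, LPS at 3.5 h) and −0.15 to 0.0147 (Asl, VWF effect over time). The replicate block gave 1943 genes called for VWF against LPS at 16 h and changed 1 call of the members, Arg1 in the VWF to LPS difference over time, and 1 of the pathway genes, Slc25a13 in VWF against LPS at 16 h (0.91, from 1.01). In the other comparisons the rule for pairing was not met, which does not show that the cultures are unpaired. There the block left between 669 and 2266 genes called where the main fits called 679 and 2210.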
